A study of Mus musculus with 16 samples.

Results

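The transcripts of 10 annexin and S100 genes were followed in mouse pancreas after cerulein-induced acute pancreatitis in Adam17ex/ex and wild-type (WT) mice. The genes are Anxa1, Anxa2, Anxa3, Anxa4, Anxa5, Anxa7, S100a6, S100a10, S100a11 and S100g. They were taken by symbol as 10 of the 24019 gene rows in the deposited count table, and all 10 passed the low-count filter, as did 8236 genes in all. The 4 groups, of 4 libraries each, were Adam17ex/ex given cerulein, WT given cerulein, Adam17ex/ex given PBS and WT given PBS. Adam17ex is a hypomorphic germline allele of the gene for the cell-surface sheddase ADAM17, so every tissue of the homozygous mice carries it. Cerulein is a cholecystokinin analogue that overstimulates acinar cells, the enzyme-secreting cells of the pancreas. All mice were C57BL/6J littermates aged 6 to 8 weeks. Each received 7 hourly intraperitoneal injections, of cerulein at 50 µg per kg or of PBS, and tissue was taken 1 hour after the last. The groups therefore describe a single early time point.

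Annexins bind acidic phospholipids of cell membranes when calcium is present, and act in vesicle traffic, exocytosis and the sealing of damaged membranes. S100 proteins are small EF-hand proteins, most of which change shape when they bind calcium and then dock onto target proteins, including the amino-terminal tails of annexins. The best known pairs are Anxa2 with S100a10 and Anxa1 with S100a11. In acinar cells calcium signals trigger the release of zymogen granules, and prolonged calcium elevation is a known early event of cerulein pancreatitis.

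The libraries held between 455547 and 1476159 unique molecular identifiers (UMIs), so that 1 UMI was worth 2.20 CPM, the UMI count scaled to the library total, in the shallowest library and 0.677 CPM in the deepest. Adam17ex/ex PBS replicates 1, 2 and 3 were the 3 shallowest. Digestive enzyme transcripts took between 32.5% and 46.7% of the UMIs of a library. The tissue label was borne out by acinar markers, whose summed level ran from 56337 to 69823 CPM in Adam17ex/ex cerulein, 35525 to 51349 CPM in WT cerulein, 44228 to 76252 CPM in Adam17ex/ex PBS and 64638 to 84467 CPM in WT PBS. Neutrophil markers were near 0, at no more than 11.2 CPM in sum in any library. Adam17 itself was counted 15 times in Adam17ex/ex cerulein, 68 times in WT cerulein, 10 times in Adam17ex/ex PBS and 41 times in WT PBS; the counts come from the 3′ end and do not read the altered part of the allele. Male mice numbered 2 in Adam17ex/ex cerulein, 1 in WT cerulein, 2 in Adam17ex/ex PBS and 0 in WT PBS, and the model held a term for sex. In 5 libraries, adipocyte and B cell markers were high, and their sums are given beside genes that were high in some of those libraries.

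Cerulein raised 6 of the 10 genes in WT pancreas, and 0 fell by edgeR, DESeq2 or limma-voom; 1, Anxa1, had a negative change with an unadjusted p under 0.05. They were Anxa2, Anxa3, Anxa5, Anxa7, S100a11 and S100g, and in each of them the 4 WT cerulein libraries lay above the 4 WT PBS libraries. In that comparison 41.1% of all genes tested were called at an adjusted p under 0.05 by edgeR's quasi-likelihood test with Benjamini-Hochberg adjustment, 19.8% as higher and 21.3% as lower. Counting Anxa4, which was not called, the ranges lay apart in 7 of the 10 genes upward and in 0 downward, against 19.2% upward and 20.2% downward of all genes tested. The median log2 fold change was 1.18 over the 10 genes, against -0.04 over all genes tested. The 10 genes were chosen with earlier results of these data known. Their shares, here and in the comparisons below, are therefore descriptions and not tests against all genes.

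In Adam17ex/ex pancreas cerulein raised 2 of the 10 genes, Anxa7 and S100g, and 1 fell, S100a10. The background was 30.3% of all genes tested, with 14.1% higher and 16.2% lower, so that the upward share of the 10 genes was close to it. The ranges lay apart in 2 of the 10 genes upward and in 0 downward, against 13.8% and 11.9% of all genes tested. Their median log2 fold change was 0.40, against -0.03 over all genes tested. The count of higher genes depended on single libraries: it was 5 without Adam17ex/ex PBS replicate 3 or WT PBS replicate 2, and 4 without Adam17ex/ex cerulein replicate 1 or WT PBS replicate 3 or 4.

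**Figure D1:**
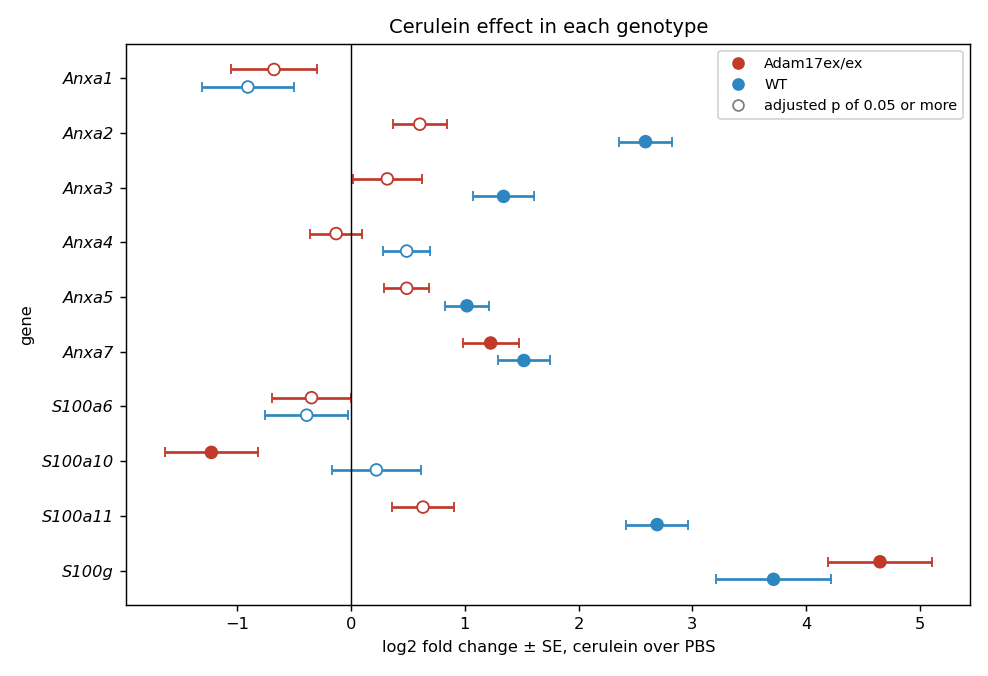
Fitted log2 fold change of each gene, cerulein over PBS, with its standard error, in Adam17ex/ex (red) and WT (blue) pancreas; filled points had an adjusted p under 0.05. The genotypes lie far apart at Anxa2, with 0.60 in Adam17ex/ex and 2.59 in WT, and at S100a11, with 0.63 in Adam17ex/ex and 2.69 in WT.

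Between the genotypes under cerulein, 5 of the 10 genes differed. S100g was higher in Adam17ex/ex, and Anxa2, Anxa3, Anxa4 and S100a11 were lower. The count of lower genes was 1 without Adam17ex/ex cerulein replicate 1 or 2 or WT cerulein replicate 1, and 2 without Adam17ex/ex cerulein replicate 4 or WT cerulein replicate 2. Of all genes tested, 9.7% were called, 5.85% as higher and 3.85% as lower. The ranges lay apart upward in S100g and downward in 3 genes, Anxa2, Anxa4 and S100a11, against 9.64% upward and 7.92% downward of all genes tested. Under PBS no gene of the 10 was called, where 1.36% of all genes were, 0.631% as higher and 0.729% as lower. The ranges lay apart in 0 of the 10 genes under PBS, against 4.16% upward and 6.24% downward of all genes tested. Of the 10 genes 4 had an unadjusted p under 0.05, all with a positive fold change. The share of all genes tested at that unadjusted threshold is not given here, so this count has no background. DESeq2 called 1 of the 4, S100a11, in a comparison where it called more genes in all than edgeR, and limma-voom called 0. The cerulein response itself differed by genotype in 2 genes, Anxa2 and S100a11, both with a smaller rise in Adam17ex/ex. In both, the interaction combined a lower Adam17ex/ex level under cerulein (log2 -1.30 and -0.92) with a higher one under PBS (0.69 and 1.14). The PBS differences were not called. That interaction was called in 6.02% of all genes tested, with 3.75% positive and 2.27% negative. The comparisons share groups and are therefore not independent of each other. In bulk tissue, fewer cells of a type and less RNA per cell cannot be told apart.

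Some duct markers moved as Anxa2 and S100a11 did. Of 10 listed duct markers 7 were tested. With cerulein 1 rose in Adam17ex/ex, close to the 14.1% of all genes tested that rose. In WT 4 rose and 2 fell, against 19.8% and 21.3% of all genes tested. The median log2 fold changes of the duct markers were -0.0065 in Adam17ex/ex and 1.02 in WT. Under cerulein 4 were lower and 1 higher in Adam17ex/ex than in WT, against 3.85% and 5.85% of all genes tested, with a median of -0.70. Of the 7 interactions 3 were called, all negative, against 2.27% of all genes tested with a negative call. Krt19, a keratin of duct cells, changed by 1.34 ± 0.21 in Adam17ex/ex and 3.42 ± 0.21 in WT, with an interaction of -2.08 ± 0.29 (edgeR adjusted p = 0.000162). Krt7 and Spp1 held the other negative interactions, at -1.83 and -2.15. The Krt7 call (edgeR adjusted p = 0.0323) was lost in 10 of 26 alternatives, and the Spp1 call in 0. The summed duct markers, led by Tff2, ran from 3184 to 4947 CPM in Adam17ex/ex cerulein, 3160 to 4353 CPM in WT cerulein, 2953 to 6048 CPM in Adam17ex/ex PBS and 4215 to 5958 CPM in WT PBS. No listed marker was at 0 over a whole group, but each Adam17ex/ex PBS library and WT PBS replicate 3 held UMIs of only 9 of the 10. Of 9 acinar markers 2 rose and 2 fell in Adam17ex/ex, against 14.1% and 16.2% of all genes tested. In WT 1 rose and 5 fell, against 19.8% and 21.3%. The acinar medians were -0.08 in Adam17ex/ex and -0.77 in WT. Which cells carried the annexin and S100 transcripts was not tested.

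**Figure D2:**
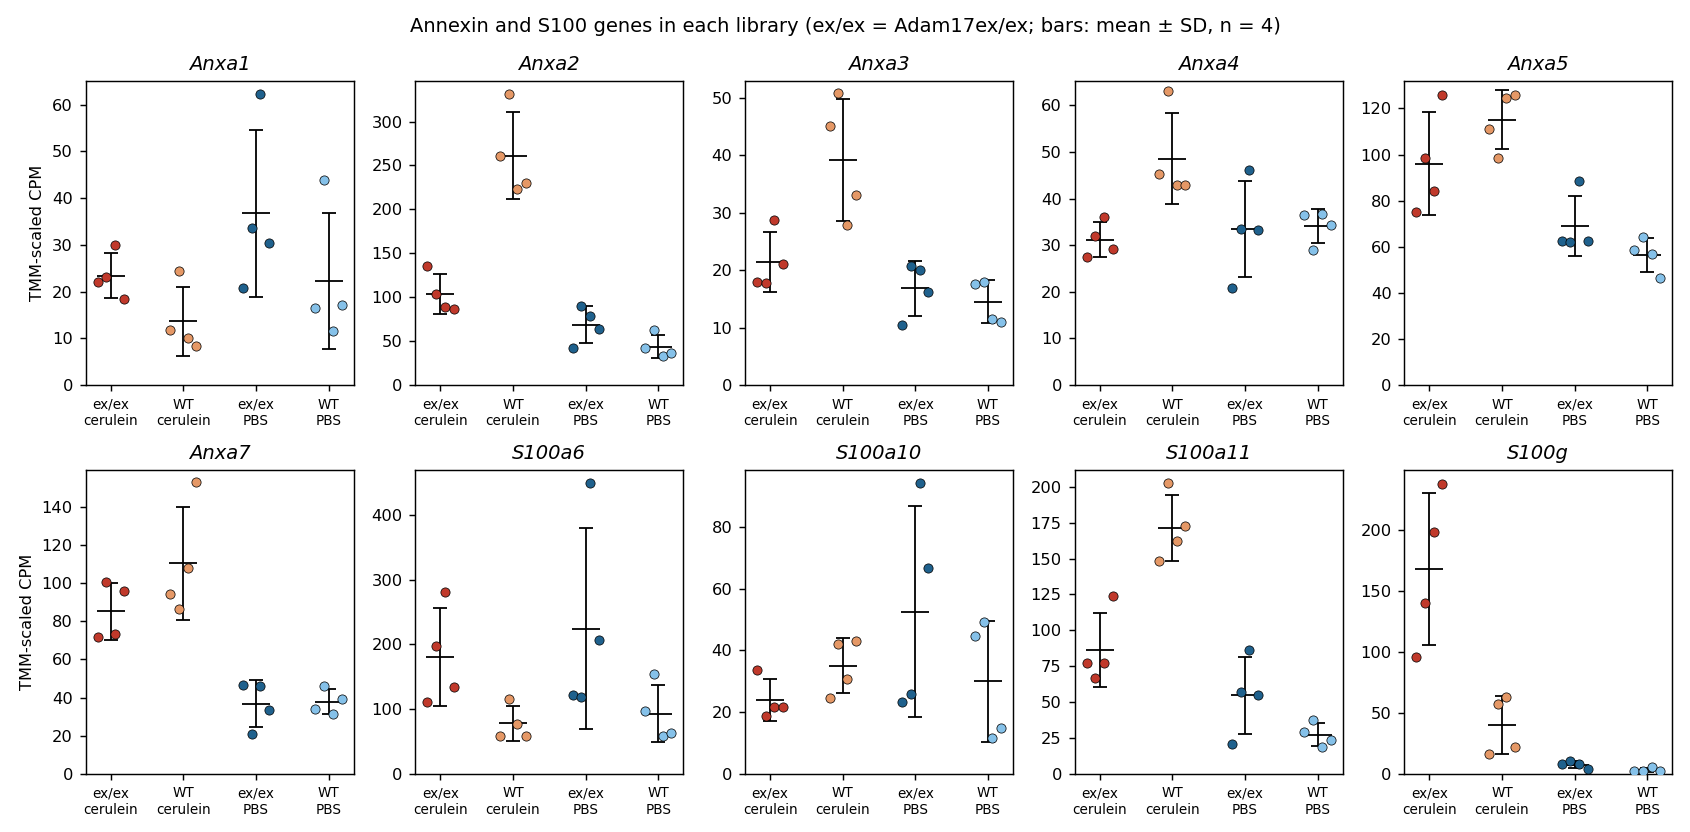
Level of each gene in TMM-scaled CPM (vertical axes, linear and starting at 0) in the 16 libraries, 1 point each, with the mean and SD of each group of 4. The WT cerulein libraries stand above all others for Anxa2 and S100a11, while the Adam17ex/ex cerulein libraries stand above all others for S100g.

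Anxa2 encodes the membrane- and actin-binding annexin of the plasma membrane and secretory vesicles, and S100a11 a small dimer that binds the tail of Anxa1. Their promoters are shown because these are the genes whose cerulein response differed by genotype. Each window runs from 250 bases before to 50 bases after the RefSeq start on GRCm38.p6, and is printed 5′ to 3′ on the gene's strand. Capitals mark, on either strand, the AP-1 motif TGAGTCA, the TATA box TATAAA, the GC box GGGCGG and the E-box CACGTG. The Anxa2 window is chr9:69453433-69453732 on the plus strand and the S100a11 window is chr3:93520246-93520545 on the plus strand.
Anxa2: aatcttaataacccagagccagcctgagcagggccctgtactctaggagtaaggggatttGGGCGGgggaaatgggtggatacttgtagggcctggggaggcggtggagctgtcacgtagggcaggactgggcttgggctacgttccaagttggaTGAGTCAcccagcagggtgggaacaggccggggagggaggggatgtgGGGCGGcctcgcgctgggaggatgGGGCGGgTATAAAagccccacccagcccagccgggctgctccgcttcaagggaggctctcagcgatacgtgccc
S100a11: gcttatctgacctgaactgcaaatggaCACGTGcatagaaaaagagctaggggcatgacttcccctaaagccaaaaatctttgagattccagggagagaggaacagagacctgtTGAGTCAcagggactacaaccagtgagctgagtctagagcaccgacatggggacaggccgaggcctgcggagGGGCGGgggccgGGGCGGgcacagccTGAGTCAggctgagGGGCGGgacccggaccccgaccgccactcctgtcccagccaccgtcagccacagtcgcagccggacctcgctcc
The AP-1 letters stood once in the Anxa2 window, at -95 from the start, and at -136 and -38 in the S100a11 window. They were in none of the other member windows of the RefSeq table, which held 10 promoters for 8 of the 10 genes, with none for Anxa3 and S100a10. Of all 32851 promoters of that length, 5.2% held them. The GC box was found 3 times in each of these windows, where 35.7% of all promoters held at least 1. A match of letters is a description of the sequence and not a bound site.

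Anxa2, on the plus strand of chromosome 9 at chr9:69453620-69491795 (GRCm38), had 136, 104, 88.8 and 86.5 CPM in Adam17ex/ex cerulein and 260, 331, 223 and 230 CPM in WT cerulein. It had 41.6, 90.4, 78.4 and 63.6 CPM in Adam17ex/ex PBS and 42.3, 62.5, 33.6 and 36.8 CPM in WT PBS. The lowest WT cerulein library was above the highest library of any other group, whereas the Adam17ex/ex libraries overlapped between cerulein and PBS. In WT the fold was 6.02 (log2 2.59 ± 0.23 SE, n = 4 per group, edgeR adjusted p = 1.06e-08). In Adam17ex/ex the log2 fold change was 0.60 ± 0.24 and was not called (edgeR adjusted p = 0.0562).

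The interaction for Anxa2 was -1.98 ± 0.33 on the log2 scale (edgeR adjusted p = 0.000845), and it was called under every alternative that could give it. Under cerulein the level in Adam17ex/ex was lower by log2 -1.30 ± 0.22 (edgeR adjusted p = 0.00033). Under PBS the difference was 0.69 ± 0.26 and was not called (edgeR adjusted p = 0.179). The rise in Adam17ex/ex was called when single libraries were left out: 0.79 without Adam17ex/ex cerulein replicate 4, 0.75 and 0.78 without Adam17ex/ex PBS replicates 2 and 3, and 0.66 without WT PBS replicate 2, 3 or 4. Those values were close to the one over all libraries, which lay just outside the threshold.

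S100a11, on the plus strand at chr3:93520488-93526287, had 77.0, 66.6, 76.8 and 124 CPM in Adam17ex/ex cerulein and 148, 203, 162 and 173 CPM in WT cerulein. It had 20.8, 56.8, 86.4 and 54.5 CPM in Adam17ex/ex PBS and 29.4, 37.2, 18.9 and 23.3 CPM in WT PBS. All 4 WT cerulein libraries were again above every other library, and 1 Adam17ex/ex PBS library lay among the Adam17ex/ex cerulein ones. In WT the fold was 6.46 (log2 2.69 ± 0.27 SE, edgeR adjusted p = 5.68e-08), against 0.63 ± 0.27 in Adam17ex/ex (edgeR adjusted p = 0.0801). The interaction was -2.06 ± 0.38 (edgeR adjusted p = 0.00231).

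The Adam17ex/ex PBS library that overlapped was replicate 3, which was rich in adipocyte and B cell markers. Without it the S100a11 rise in Adam17ex/ex was 1.09 and was called (edgeR adjusted p = 0.00335); it was also called without Adam17ex/ex cerulein replicate 1, at 0.79, and without WT PBS replicate 2, at 0.69. Between genotypes under cerulein S100a11 was lower in Adam17ex/ex by log2 -0.92 ± 0.24 (edgeR adjusted p = 0.016). That call was lost without Adam17ex/ex cerulein replicate 1, at -0.81, without its replicate 2, at -0.87, and without WT cerulein replicate 1, at -0.94. Under PBS the difference was 1.14 ± 0.31 in the other direction and was not called (edgeR adjusted p = 0.0644), but it was called without Adam17ex/ex PBS replicate 1, at 1.27. A processed pseudogene, S100a11-ps, can share reads with S100a11, and how such reads were counted is not given in the sources used here.

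S100g encodes calbindin-D9k, a cytosolic calcium-binding protein best known from the intestine, where vitamin D raises it and it carries calcium across the cell. Unlike most S100 proteins it works as a single-chain calcium carrier rather than by docking onto targets. Its promoter is shown because it had the largest cerulein rise of the 10 genes in both genotypes. The window is chrX:162964550-162964849 on the minus strand of GRCm38.p6, printed and capitalised as above.
S100g: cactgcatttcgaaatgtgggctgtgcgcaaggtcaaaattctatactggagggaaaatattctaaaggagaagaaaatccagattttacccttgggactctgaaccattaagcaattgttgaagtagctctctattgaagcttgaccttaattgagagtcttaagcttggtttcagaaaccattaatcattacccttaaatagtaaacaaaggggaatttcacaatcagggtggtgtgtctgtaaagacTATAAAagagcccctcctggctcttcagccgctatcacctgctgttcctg
The TATA letters lay at the annotated start itself, and none of the other searched motifs was in the window. Those TATA letters were in 13.6% of all promoters.

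S100g had 96.0, 140.4, 198 and 238 CPM in Adam17ex/ex cerulein and 16.3, 57.6, 63.0 and 22.3 CPM in WT cerulein. It had 7.80, 10.3, 8.04 and 4.04 CPM in Adam17ex/ex PBS and 2.35, 2.23, 5.25 and 2.45 CPM in WT PBS. Every cerulein library of a genotype was above every PBS library of it, and the lowest Adam17ex/ex cerulein library was above the highest WT cerulein one. The fold for cerulein was 25.1 in Adam17ex/ex (log2 4.65 ± 0.46 SE, edgeR adjusted p = 1.24e-07) and 13.1 in WT (log2 3.71 ± 0.51 SE, edgeR adjusted p = 4.43e-06). These folds rest on few PBS molecules, 15 UMIs over the 4 Adam17ex/ex libraries and 12 over the 4 WT libraries, and the gene passed the low-count filter through its cerulein libraries.

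Under cerulein, S100g was 4.62 times as high in Adam17ex/ex as in WT (log2 2.21 ± 0.33 SE, edgeR adjusted p = 9.13e-05). This comparison rests on 91, 158, 165 and 349 UMIs in Adam17ex/ex and 18, 52, 88 and 27 UMIs in WT. Within Adam17ex/ex cerulein the female replicates 1 and 4 held the lowest and the highest level, and the male replicates lay between them. Within WT cerulein the only male, replicate 1, held the lowest level, 16.3 CPM. Under PBS the difference was 1.27 ± 0.78 and was not called (edgeR adjusted p = 0.437). The interaction was 0.94 ± 0.89 (edgeR adjusted p = 0.583), so the folds of the genotypes were not shown to differ. S100g lies on the minus strand at chrX:162961992-162964599 inside Ctps2, which runs on the other strand. Ctps2 had 115 UMIs over all 16 libraries, against 975 for S100g, and the strand setting of the counting is not given in the sources used here.

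Trpv6, the calcium entry channel that works with calbindin-D9k in the intestine, rose with cerulein in both genotypes. It had 90.7, 76.4, 81.6 and 61.3 CPM in Adam17ex/ex cerulein and 26.2, 34.3, 38.7 and 26.5 CPM in WT cerulein. It had 15.6, 12.9, 12.1 and 6.06 CPM in Adam17ex/ex PBS and 9.40, 3.72, 5.25 and 14.7 CPM in WT PBS. The order of the groups was that of S100g, with no overlap between the genotypes under cerulein. The log2 fold change for cerulein was 2.86 ± 0.32 in Adam17ex/ex and 2.00 ± 0.33 in WT (edgeR adjusted p = 8.91e-07 and 3.74e-05). Under cerulein Adam17ex/ex was higher by 1.28 ± 0.24 (edgeR adjusted p = 0.00127). The genotype by cerulein interaction of Trpv6 was not called. Its PBS levels rest on few molecules, 6, 5, 6 and 6 UMIs in Adam17ex/ex and 8, 5, 5 and 12 UMIs in WT.

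S100a10 encodes the S100 protein that holds Anxa2 in a tetramer at the membrane and is fixed in its active shape without calcium. It had 33.8, 18.7, 21.6 and 21.8 CPM in Adam17ex/ex cerulein and 24.4, 42.1, 30.8 and 43.0 CPM in WT cerulein. It had 23.4, 25.8, 94.4 and 66.7 CPM in Adam17ex/ex PBS and 44.7, 49.1, 11.5 and 14.7 CPM in WT PBS. All groups overlapped, and the PBS groups each split into a pair of high and a pair of low libraries. Cerulein lowered it in Adam17ex/ex by log2 -1.23 ± 0.41 (edgeR adjusted p = 0.0261), against 0.22 ± 0.39 in WT (edgeR adjusted p = 0.679). The interaction was -1.45 ± 0.57 (edgeR adjusted p = 0.131).

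The high PBS libraries for S100a10 were those rich in adipocyte and B cell markers. In Adam17ex/ex cerulein replicate 3, also rich in them, S100a10 was not high, at 21.6 CPM in a group of 18.7 to 33.8 CPM. The summed level of these markers was 83.3, 94.2, 484 and 79.7 CPM in Adam17ex/ex cerulein and 53.4, 73.1, 42.3 and 57.0 CPM in WT cerulein. It was 182, 299.5, 1292 and 854.5 CPM in Adam17ex/ex PBS and 388, 855, 61.9 and 102 CPM in WT PBS. Adam17ex/ex PBS replicate 3 also held the highest monocyte and macrophage sum, 1083 CPM, and the highest fibroblast sum, 1563 CPM. Without the 5 richest libraries, an alternative chosen after seeing the data, the S100a10 change was -0.09 in Adam17ex/ex (edgeR adjusted p = 0.909) and 1.52 in WT (edgeR adjusted p = 0.00111). The fall in Adam17ex/ex was also lost without Adam17ex/ex PBS replicate 3 alone, at -0.67, without its replicate 4, at -1.06, and without Adam17ex/ex cerulein replicate 2 or 4, at -1.12 and -1.07. It was not called by DESeq2 either (-1.15, DESeq2 adjusted p = 0.0856).

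**Figure D3:**
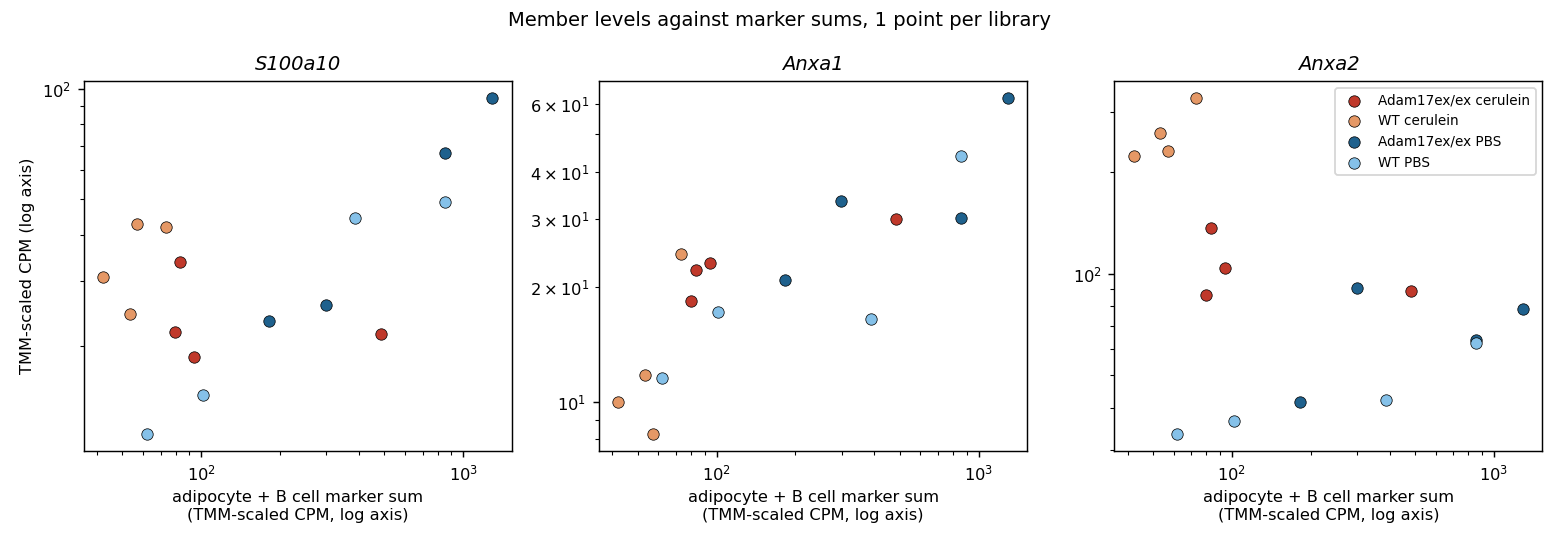
Level of S100a10, Anxa1 and Anxa2 (TMM-scaled CPM, log axis) against the summed level of adipocyte and B cell markers (TMM-scaled CPM, log axis), 1 point per library, coloured by group. S100a10 and Anxa1 reach their highest level in the library with the highest marker sum, Adam17ex/ex PBS replicate 3 at 94.4 and 62.3 CPM, while Anxa2 is highest in WT cerulein, where marker sums are at most 73.1 CPM.

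The balance between the transcripts of binding partners shifted with cerulein. Protein levels and complexes were not measured. The ratio of Anxa2 to S100a10 UMIs within a library was 4.03, 5.57, 4.11 and 3.97 in Adam17ex/ex cerulein and 10.7, 7.87, 7.26 and 5.35 in WT cerulein. It was 1.78, 3.5, 0.830 and 0.955 in Adam17ex/ex PBS and 0.947, 1.27, 2.91 and 2.50 in WT PBS. Cerulein and PBS libraries did not overlap in either genotype. The difference in mean log2 ratio was 1.55 in Adam17ex/ex and 2.13 in WT, each with p = 0.0286 in a two-sided exact permutation test, the smallest p that 4 against 4 libraries allow (0.0457 after adjustment over 8 such tests). Under cerulein the genotypes differed by -0.79 (exact permutation p = 0.0571). The test was chosen after seeing the data. The low ratios of Adam17ex/ex PBS replicates 3 and 4 and of WT PBS replicates 1 and 2 were in marker-rich libraries. Without the 5 marker-rich libraries the difference was 0.84 in Adam17ex/ex and 1.49 in WT, still without overlap, and the libraries left cannot give an exact permutation p below 0.1 in Adam17ex/ex or 0.0667 in WT.

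The ratio of Anxa1 to S100a11 UMIs moved the other way. It was 0.288, 0.347, 0.391 and 0.148 in Adam17ex/ex cerulein and 0.0793, 0.120, 0.0619 and 0.0478 in WT cerulein. It was 1.00, 0.591, 0.721 and 0.556 in Adam17ex/ex PBS and 0.560, 1.18, 0.611 and 0.737 in WT PBS. No WT cerulein library overlapped any other library, and the Adam17ex/ex cerulein libraries lay between WT cerulein and both PBS groups. The difference in mean log2 ratio for cerulein was -1.34 in Adam17ex/ex and -3.34 in WT, and that between genotypes under cerulein was 1.92. Each of these 3 had the smallest possible exact permutation p of 0.0286 (0.0457 adjusted). Under PBS the genotypes differed by -0.08 (exact permutation p = 0.686). Without the 5 marker-rich libraries the cerulein differences were -1.65 in Adam17ex/ex and -3.20 in WT.

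**Figure D4:**
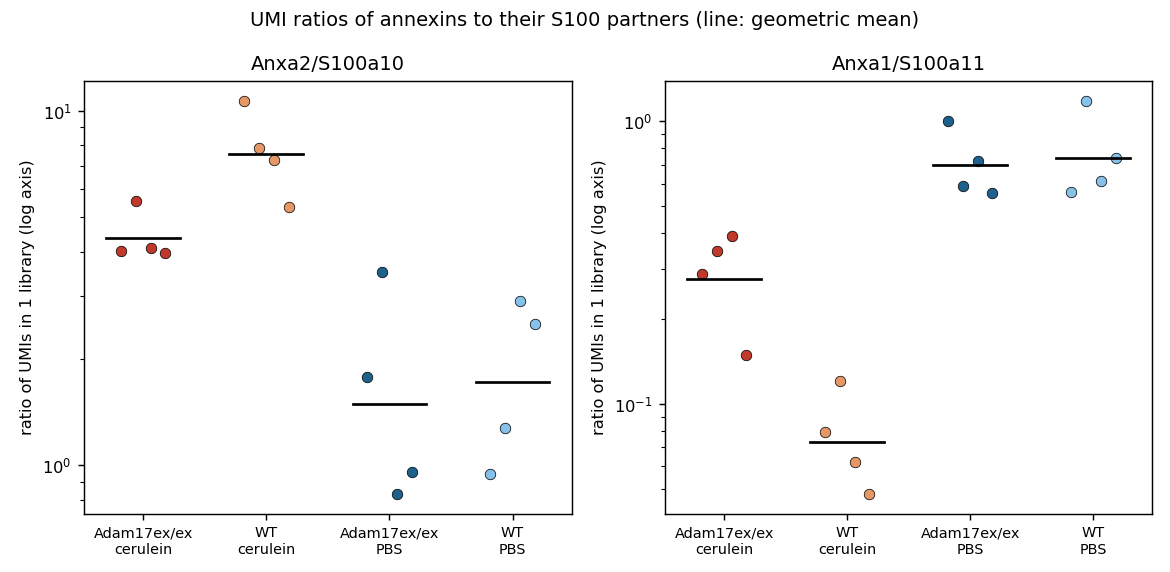
Ratio of UMIs within a library (log axis) for Anxa2 over S100a10 and for Anxa1 over S100a11 in the 4 groups, 1 point per library, with the geometric mean as a line. The WT cerulein libraries hold the lowest Anxa1/S100a11 ratios, between 0.0478 and 0.120, and most of the highest Anxa2/S100a10 ratios, between 5.35 and 10.7.

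Anxa7, which promotes membrane fusion and was first purified as synexin, rose with cerulein in both genotypes. It had 71.7, 100.4, 73.2 and 96.0 CPM in Adam17ex/ex cerulein and 94.1, 86.4, 108 and 153 CPM in WT cerulein. It had 46.8, 20.7, 46.2 and 33.3 CPM in Adam17ex/ex PBS and 34.1, 46.2, 31.5 and 39.2 CPM in WT PBS. Every cerulein library was above every PBS library. The log2 fold change was 1.23 ± 0.25 in Adam17ex/ex (edgeR adjusted p = 0.000635) and 1.52 ± 0.23 in WT (edgeR adjusted p = 1.2e-05). Both were called under every alternative run. The genotypes differed by -0.39 ± 0.21 under cerulein, which was not called (edgeR adjusted p = 0.275).

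Anxa5, the phosphatidylserine-binding annexin used as a stain for dying cells, had 74.9, 98.6, 84.0 and 126 CPM in Adam17ex/ex cerulein and 111, 98.6, 125 and 126 CPM in WT cerulein. It had 62.4, 62.0, 88.4 and 62.6 CPM in Adam17ex/ex PBS and 58.8, 64.0, 56.7 and 46.6 CPM in WT PBS. The WT groups did not overlap, and 1 Adam17ex/ex PBS library lay among the Adam17ex/ex cerulein ones. In WT it rose by log2 1.02 ± 0.19 (edgeR adjusted p = 0.000175). In Adam17ex/ex the change was 0.49 ± 0.20 (edgeR adjusted p = 0.0634), and leaving out 1 library brought it past the threshold: 0.66 without Adam17ex/ex cerulein replicate 1, 0.70 without Adam17ex/ex PBS replicate 3, 0.54 without WT PBS replicate 2 or 4 and 0.55 without WT PBS replicate 3. The interaction of -0.53 was not called (edgeR adjusted p = 0.269).

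Anxa3 had 17.9, 17.8, 28.8 and 21.1 CPM in Adam17ex/ex cerulein and 45.2, 50.9, 27.9 and 33.1 CPM in WT cerulein. It had 10.4, 20.7, 20.1 and 16.2 CPM in Adam17ex/ex PBS and 17.6, 17.9, 11.5 and 11 CPM in WT PBS. The WT groups did not overlap, and the genotypes overlapped in 1 library each under cerulein. In WT it rose by log2 1.34 ± 0.26 (edgeR adjusted p = 0.000298), against 0.32 ± 0.30 in Adam17ex/ex (edgeR adjusted p = 0.455). Under cerulein Adam17ex/ex was lower by -0.90 ± 0.25 (edgeR adjusted p = 0.0203). That call was lost without Adam17ex/ex cerulein replicate 1, 2 or 4, at -0.84, -0.81 and -0.95, and without WT cerulein replicate 1 or 2, at -0.85 and -0.76. DESeq2 did not call it either (-0.93, DESeq2 adjusted p = 0.0513), and the interaction was -1.02 ± 0.41 (edgeR adjusted p = 0.142).

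Anxa4, an annexin of epithelial cells known to restrain a calcium-activated chloride current, had 27.4, 32.0, 36.0 and 29.3 CPM in Adam17ex/ex cerulein and 45.2, 63.1, 43.0 and 43.0 CPM in WT cerulein. It had 20.8, 33.6, 46.2 and 33.3 CPM in Adam17ex/ex PBS and 36.4, 29.0, 36.7 and 34.3 CPM in WT PBS. The Adam17ex/ex cerulein libraries were all below the WT cerulein ones, and the WT cerulein libraries were all above the WT PBS ones. Under cerulein the genotypes differed by -0.65 ± 0.21 (edgeR adjusted p = 0.04995), at the edge of the threshold. The call was lost in 16 of 27 alternatives, among them leaving out any 1 of the 8 cerulein libraries, with values between -0.77 and -0.52, and any 1 of Adam17ex/ex PBS replicates 2 and 3 and WT PBS replicates 1, 3 and 4, with values between -0.67 and -0.63. In WT the change was 0.49 ± 0.21 (edgeR adjusted p = 0.0632), which was called, at 0.56, without WT cerulein replicate 1 or Adam17ex/ex PBS replicate 3, and, between 0.49 and 0.54, without Adam17ex/ex cerulein replicate 1 or 4 or Adam17ex/ex PBS replicate 1.

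**Figure D5:**
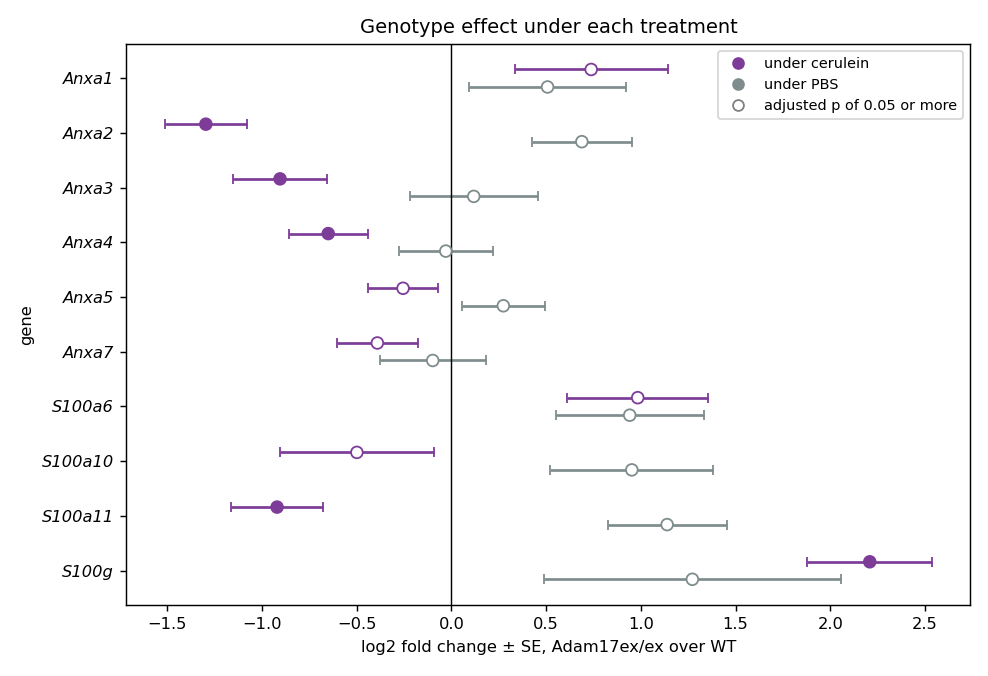
Fitted log2 fold change of each gene, Adam17ex/ex over WT, with its standard error, under cerulein (purple) and under PBS (grey); filled points had an adjusted p under 0.05. Anxa2 lies at -1.30 under cerulein and 0.69 under PBS, and S100a11 at -0.92 under cerulein and 1.14 under PBS, while no PBS point is filled.

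Anxa1 and S100a6 were not called in any comparison. Anxa1, known for limiting inflammation through formyl peptide receptors, had 22.2, 23.1, 30.0 and 18.4 CPM in Adam17ex/ex cerulein and 11.8, 24.4, 10.0 and 8.27 CPM in WT cerulein. It had 20.8, 33.6, 62.3 and 30.3 CPM in Adam17ex/ex PBS and 16.5, 43.9, 11.5 and 17.2 CPM in WT PBS. All groups overlapped with at least 1 other. The highest libraries were Adam17ex/ex PBS replicate 3 and WT PBS replicate 2, both among the 5 rich in adipocyte and B cell markers. The log2 change with cerulein was -0.68 ± 0.38 in Adam17ex/ex (edgeR adjusted p = 0.186) and -0.91 ± 0.40 in WT (edgeR adjusted p = 0.0759). Without those 5 libraries the change was -0.36 in Adam17ex/ex and -0.096 in WT (edgeR adjusted p = 0.634 and 0.884). Single libraries moved it too: it was -0.27 in Adam17ex/ex without Adam17ex/ex PBS replicate 3, and in WT it was -0.22 without WT PBS replicate 2, but -1.35 without WT cerulein replicate 2 and -1.08 without WT PBS replicate 3, where it was called. Its receptors Fpr1 and Fpr2 were counted at most 5 times in any group.

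S100a6, calcyclin, had 111, 197, 281 and 134 CPM in Adam17ex/ex cerulein and 58.8, 116, 77.4 and 58.7 CPM in WT cerulein. It had 122, 119, 450.1 and 206 CPM in Adam17ex/ex PBS and 97.6, 154, 57.7 and 62.5 CPM in WT PBS. Under cerulein the lowest Adam17ex/ex library lay below the highest WT one and the groups were otherwise apart, and under PBS the genotypes overlapped widely. The means were 181 ± 76.1 CPM in Adam17ex/ex cerulein and 77.8 ± 27.1 CPM in WT cerulein, and 224 ± 156 CPM in Adam17ex/ex PBS and 93.0 ± 44.5 CPM in WT PBS (SD, n = 4 each). The difference was 0.98 ± 0.37 under cerulein (edgeR adjusted p = 0.101) and 0.94 ± 0.39 under PBS (edgeR adjusted p = 0.215). Under cerulein it was called in 8 of 27 alternatives, including without WT cerulein replicate 2, at 1.26, without Adam17ex/ex PBS replicate 3, at 1.13, and without the 5 marker-rich libraries, at 0.90. It was 0.57 without WT cerulein replicate 1 (edgeR adjusted p = 0.499). Fibroblast and stellate markers, whose cells express S100a6, had sums of 410 to 593 CPM in Adam17ex/ex cerulein, 266 to 382 CPM in WT cerulein, 549 to 1563 CPM in Adam17ex/ex PBS and 233 to 610 CPM in WT PBS; their part in the result was not tested.

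Of the other annexin and S100 genes, 17 were in the file and 5 were tested. Anxa13, an annexin of epithelial membranes, fell with cerulein by log2 -2.68 ± 0.66 in Adam17ex/ex and -2.83 ± 0.65 in WT (edgeR adjusted p = 0.00379 and 0.00134). Those values rest on 9 UMIs in Adam17ex/ex cerulein, 6 in WT cerulein, 32 in Adam17ex/ex PBS and 49 in WT PBS, and the WT change was -4.44 without WT cerulein replicate 4. S100a1, an S100 protein known from striated muscle, fell by -0.78 ± 0.23 in Adam17ex/ex and -0.99 ± 0.23 in WT. The fall in Adam17ex/ex was lost without Adam17ex/ex cerulein replicate 4, at -0.69, and without Adam17ex/ex PBS replicate 3 or 4, at -0.63 and -0.52. It was also lost with DESeq2, at -0.73, and without a filter, at -0.62. Without the 5 marker-rich libraries it was -0.28 (edgeR adjusted p = 0.57). S100a13 changed in Adam17ex/ex by -1.12 ± 0.42 (edgeR adjusted p = 0.0471), a call lost in 15 of 27 alternatives and at -0.69 without Adam17ex/ex PBS replicate 3 and -0.78 without Adam17ex/ex cerulein replicate 2. S100a16 rose in WT, by 0.82 ± 0.17 (edgeR adjusted p = 0.0006). None of the 5 was called between the genotypes. S100a8 and S100a9, the calprotectin subunits of neutrophils, were too low to be tested, with 16 and 13 UMIs in Adam17ex/ex cerulein, 8 and 8 in WT cerulein, 3 and 5 in Adam17ex/ex PBS and 33 and 17 in WT PBS.

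Of 17 listed binding partners of these proteins 8 were tested. Under cerulein 3 rose and 1 fell in Adam17ex/ex, where 14.1% of all genes tested rose and 16.2% fell, and 6 rose in WT, where 19.8% of all genes rose. Between the genotypes under cerulein 1 was higher in Adam17ex/ex, Trpv6, and 2 were lower, Ahnak and Cacybp, against 5.85% higher and 3.85% lower of all genes tested; Cacybp is named after its values were seen. Ahnak, the giant scaffold bound by the Anxa2-S100a10 tetramer, averaged 73.2 ± 20.6 CPM in Adam17ex/ex cerulein and 160 ± 27.8 CPM in WT cerulein, and 120 ± 29.5 CPM in Adam17ex/ex PBS and 56.5 ± 14.9 CPM in WT PBS (SD, n = 4 each). It fell with cerulein in Adam17ex/ex, by log2 -0.70 ± 0.23, and rose in WT, by 1.44 ± 0.23. The fall was lost without Adam17ex/ex cerulein replicate 2 or 4, at -0.53 and -0.52, and without Adam17ex/ex PBS replicate 2 or 3, at -0.54 and -0.56. It was also lost without a filter, at -0.54, and was -0.32 without the 3 shallow Adam17ex/ex PBS libraries. The interaction was -2.14 ± 0.33 (edgeR adjusted p = 0.000386). Cacybp, the calcyclin-binding protein that S100a6 engages, rose in WT by 0.95 ± 0.20, with an interaction of -1.21 ± 0.30 (edgeR adjusted p = 0.0167), which was lost without Adam17ex/ex cerulein replicate 2, at -1.15, and without Adam17ex/ex PBS replicate 4, at -1.06. That interaction was also lost without a filter, at -1.09, and without the 5 marker-rich libraries, at -1.02. The Cacybp difference between genotypes under cerulein was lost without Adam17ex/ex cerulein replicate 1, 2 or 4, at -0.71, -0.71 and -0.75, and without WT cerulein replicate 2, at -0.62. Sugt1, a co-chaperone that also binds S100a6, rose in both genotypes, as did Pdcd6ip, the ESCRT adaptor ALIX.

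Calm2, which encodes the general calcium sensor calmodulin, rose with cerulein in both genotypes, by log2 0.68 ± 0.18 in Adam17ex/ex (edgeR adjusted p = 0.0062) and 1.16 ± 0.18 in WT (edgeR adjusted p = 1.78e-05). It averaged 183 ± 16 CPM in Adam17ex/ex cerulein and 244 ± 37.2 CPM in WT cerulein, and 115 ± 21.8 CPM in Adam17ex/ex PBS and 107 ± 16.9 CPM in WT PBS (SD, n = 4 each). Vdr, the vitamin D receptor, was counted only 4 times in Adam17ex/ex cerulein, 9 times in WT cerulein, 6 times in Adam17ex/ex PBS and 7 times in WT PBS.

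The genes most like the leading members over the 4 groups were named by the smallest root mean square difference of centred mean log2 CPM. For Anxa2 they were Nsmf, at 0.098, and Jcad, at 0.10. For S100a11 they were Slc25a24, the calcium-binding mitochondrial ATP-Mg and phosphate carrier, at 0.052, and Crb3, an apical polarity protein, at 0.095. For S100g they were Egr1, an immediate early transcription factor, at 0.21, and Rcan1, a calcineurin regulator, at 0.46. The pairs nearest to the other members were Ly6c1 and Smoc2 for Anxa1, Plcb3 and Coro1c for Anxa3, Katna1 and Sfr1 for Anxa4, Aopep and Bag3 for Anxa5, Sun2 and Sptlc2 for Anxa7, Leng8 and Ddr2 for S100a6, and Dnajc14 and Brip1os for S100a10. With 4 group means such likeness is loose, and the S100g neighbours were farther from it than those of the others.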

How the data were processed

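Total pancreas RNA was sequenced from poly(A)-primed libraries with a 10 bp molecular identifier, per the labels' protocols. The deposited values are UMI counts per gene, listed under builds GRCm38 and mm10 and under tools that include edgeR 3.36.0 and limma 3.50.0 by the submitters' processing notes; aligner, counter and strand setting: not given in the sources used here. Counts were tested in edgeR 4.0.16 (R 4.3.3) by the quasi-likelihood test, with TMM scaling, filterByExpr at a minimum count of 10, and terms for group and sex over all 16 libraries. A gene was called when its p, adjusted by Benjamini-Hochberg over 8236 genes, was under 0.05. Levels are TMM-scaled CPM, and log2 CPM used a prior count of 2. The members and gene lists were chosen with earlier results of these data known. The named genes are the members, the 4 genes per list with the smallest p in any comparison, S100a8, S100a9 and the 2 nearest patterns of each member; some list results are not reported here. Replicates of a group differed beyond counting noise in all 24 pairs. The labels number the replicates without stating how they relate, so p-values measure the spread between these samples. Alternatives were DESeq2, limma-voom, other scalings and filters, no sex term, a replicate block, only 2 groups, and libraries left out.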

Additional observations from a re-analysis of the deposited data

Results flagged for a closer look

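Anxa2 and S100a11 differed in their cerulein response between Adam17ex/ex and WT by an interaction of -1.98 and -2.06 on the log2 scale, with edgeR adjusted p values of 0.000845 and 0.00231. In 3 of 40 gene and group combinations a single library stood far from the other 3. Chance picks about 1 in 20, so this count is close to what chance gives. Anxa4 in WT cerulein replicate 2 was at 6.03 log2 CPM, with the others between 5.49 and 5.56. Anxa5 in Adam17ex/ex PBS replicate 3, the library with the highest adipocyte and B cell marker sum, was at 6.50 log2 CPM, with the others between 6.00 and 6.02. S100g in WT PBS replicate 3 was at 2.88 log2 CPM, with the others between 2.12 and 2.19, a gap that rests on 5 UMIs against 2 or 3.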

How the results depend on the processing

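Of the 1337 values for the 10 members under 27 alternatives, 1235 kept their direction and side of the threshold, 32 lost a call, 46 gained one and 24 changed sign; the causes were not tested. Of 1310 alternative values behind 49 calls of 20 genes from the other lists, added after seeing the data, 1213 stayed called, 97 lost the call and 0 changed sign. The interactions of Anxa2 and S100a11 were called under all 26 alternatives that gave them, and the cerulein calls of S100g and Anxa7 in both genotypes under all 27. For cerulein in Adam17ex/ex the members higher were 5 without a filter and 4 with limma-voom, the members lower were 0 with DESeq2, without the 3 shallow libraries or without the 5 marker-rich ones, and all genes called were 1360 and 1441 without those 3 or 5, against 2493. For cerulein in WT 1 member was lower without a filter. Between genotypes under cerulein 2 members were higher without a filter, with limma-voom, without the sex term, with only the 2 groups compared, and without the 3 or the 5 libraries, and 2 were lower with DESeq2. Under PBS the 112 genes called became 331 without a filter, 306 with DESeq2, 406 without the sex term, 14 with only 2 groups, and 15 and 50 without the 3 or 5 libraries; members higher were 2 without a filter and 1 with DESeq2. Interaction calls were 152 and 254 without the 3 or 5 libraries, against 496. Leaving out 1 replicate gave 2 to 5 members higher and 0 to 1 lower for cerulein in Adam17ex/ex, 0 to 1 lower for cerulein in WT, 402 to 913 genes, 1 to 2 members higher and 1 to 4 lower between genotypes under cerulein, 30 to 370 genes and 0 to 1 members higher under PBS, and 239 to 624 genes for the interaction. Without the 3 shallow libraries 1 Adam17ex/ex PBS library remains and is assumed to vary like the other groups.

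Same-numbered replicates correlated with r between -0.22 and 0.24 over 24 pairs, of which 5 were above 0.1 and 7 were closest to their own number. Between Adam17ex/ex cerulein and Adam17ex/ex PBS 3 of 4 pairs were above 0.1 (0.16, 0.12 and 0.24) and closest to their own number, but not replicate 2, so no groups were treated as paired. With a replicate block 230 genes were called under PBS, Anxa2 in Adam17ex/ex was called at 0.58, and Anxa4 between genotypes under cerulein was lost at -0.65. Signs changed only for values that were not called. Anxa4 with cerulein in Adam17ex/ex was 0.028 without a filter, 0.14 without the 5 libraries and -0.24 to 0.10 without single replicates. S100a6 with cerulein was -0.35 in Adam17ex/ex and -0.39 in WT over all libraries. Without the 5 libraries it was 0.33 and 0.34, and without single replicates it was -0.55 to 0.21 and -0.70 to 0.026. Under PBS Anxa3 was -0.0012 without a filter and -0.0056 to 0.24 without single replicates, Anxa4 was 0.0013 without the sex term and -0.17 to 0.056 without single replicates, and Anxa7 was -0.20 to 0.11. The Anxa1 interaction was 0.23 over all libraries, -0.26 without the 5 libraries and -0.40 to 0.69 without single replicates. The S100a6 interaction was -0.045 without the sex term, -0.064 without the 3 libraries, -0.0065 without the 5, and -0.32 to 0.49 without single replicates. Depth limits S100g under PBS and the low family members.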

Other observations

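Genes of calcium-dependent proteolysis and membrane repair, processes that annexins share, were followed as a list of 14, of which 12 were tested. With cerulein 4 rose and 2 fell in Adam17ex/ex, against 14.1% and 16.2% of all genes tested, and 8 rose in WT, against 19.8%. Between the genotypes under cerulein 3 were lower in Adam17ex/ex, against 3.85% of all genes tested. These were Capn2, Capn5 and Ehd2, the last named after its values were seen. Ehd2 was lower by log2 -1.19 (edgeR adjusted p = 0.0499), at the edge of the threshold. That call was lost in 20 of 26 alternatives, DESeq2 among them. The list was chosen with earlier results of these data known.

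Capn2, the large subunit of m-calpain, averaged 42.7 ± 6.56 CPM in Adam17ex/ex cerulein and 81.8 ± 28.4 CPM in WT cerulein, and 18.8 ± 3.69 CPM in Adam17ex/ex PBS and 9.86 ± 1.22 CPM in WT PBS (SD, n = 4 each). It rose with cerulein by log2 1.21 ± 0.28 in Adam17ex/ex and 2.97 ± 0.27 in WT, with an interaction of -1.76 ± 0.41 (edgeR adjusted p = 0.0126). Cast, the calpain inhibitor calpastatin, rose in both genotypes, by 1.40 ± 0.27 in Adam17ex/ex and 2.36 ± 0.27 in WT. Chmp4b, the ESCRT-III filament subunit, rose by 0.99 ± 0.19 in Adam17ex/ex and 1.12 ± 0.18 in WT. Without the 3 shallow or the 5 marker-rich libraries the Capn2 interaction was -1.66 and -1.61 and was no longer called. Under cerulein Capn2 was lower in Adam17ex/ex by -0.97 ± 0.21 (edgeR adjusted p = 0.0043), a call lost without WT cerulein replicate 1, at -0.74. Capn5, a calpain without the calmodulin-like domain, was lower by -1.46 ± 0.44 (edgeR adjusted p = 0.0386), a call lost without Adam17ex/ex cerulein replicate 2, 3 or 4, at -1.50, -1.26 and -1.18, and without WT cerulein replicate 1, 2 or 3, at -0.96, -1.44 and -1.49.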
